A study of Mus musculus with 8 samples.

Results

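The islet receptors described here are 10 G-protein-coupled receptors through which hormones, nutrients and nerves act on islet cells, namely Glp1r, Gipr, Gcgr, Ffar1, Casr, Chrm3, Sstr3, Adra2a, Galr1 and Drd2. Members were chosen by name: every probe whose transcript accession maps to 1 of these symbols was taken, which gave 11 probes for the 10 genes among 55681 probes on the array. Glp1r had 2 probes and each of the others had 1. Of these, 10 probes for 9 genes stood well above background in 3 or more of the 7 mice and were compared between genotypes, among 39160 compared probes in all. The probe for Drd2 did not meet this limit.

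Islets were picked by hand from male C57BL/6 mice on a standard diet, and their total RNA was read in 1 colour (Cy3) on Agilent arrays, with 4 replicates labelled CB1 WT and 3 labelled CB1 KO. By the study's methods, β-CB1R-/- mice are Cnr1 flox/flox:MIP-Cre/ERT+ and β-CB1R+/+ mice are their Cnr1 flox/flox:MIP-Cre/ERT- littermates, so that both genotypes carry the floxed allele and only the β-CB1R-/- mice carry the Cre transgene, which an insulin promoter drives in beta cells. Tamoxifen, which activates this Cre, was given to both genotypes in the study's design, and the study also kept a line with the Cre alone that is not among these samples. The sample labels name only CB1 KO and WT and their husbandry text speaks of a global knockout, while the title of the series names the beta cell knockout. The age of the mice on the arrays is not given in the sources used here. Each replicate was taken as the islets of 1 mouse, which the labels do not spell out, so p-values measure the spread between these samples. Position on the single slide cannot be told apart from genotype, since the arrays of each genotype lay together, and replicate 2 of β-CB1R-/- was hybridised to 2 arrays that were averaged.

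Incretins are gut hormones that raise insulin secretion after a meal. Their receptors couple to Gs, which activates adenylyl cyclase and raises cAMP, whereas receptors for somatostatin, noradrenaline, galanin and dopamine couple to Gi proteins, which lower cAMP and hold insulin secretion down. CB1R is itself a Gi-coupled receptor, and the question asked of these genes is whether the transcripts of the other receptors that feed into the same signal differ between islets with and without it.

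No receptor passed the test, and most were lower in β-CB1R-/- islets with overlap between the genotypes. Of the 9 receptor genes compared, 0 had an adjusted p under 0.05 in limma, against 0.11% of all compared probes (43 probes). The genotypes overlapped in all 9 genes, while 4.11% of all compared probes had every mouse of one genotype above every mouse of the other. At an unadjusted p under 0.05 there were 0 receptors and 3.59% of all probes. With no mouse left out, Casr was the 1 receptor under 0.05 in 4 alternative settings: normexp, a model-based background correction (2.68% of all probes), quantile normalisation (4.54%), only probes above background on all 8 arrays (3.85%), and an intensity trend in the variance (3.7%). With the replicate number as a block, which gives control replicate 4 no partner and so no weight in the difference, it was Ffar1 (4.38% of all probes). The log2 difference, β-CB1R-/- minus β-CB1R+/+, was below 0 in 8 of 9 receptor genes with a median of -0.33. It was below 0 in 52.3% of all compared probes, and in 55.7% of the 16955 genes by their brightest probe, with a median of -0.04. The adjusted p was 0.999 for each receptor probe in limma. In whole islets, fewer cells of a type and less RNA per cell cannot be told apart.

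Each level is a log2 intensity with the array's 75th percentile subtracted, so that 0 is as bright as that percentile and each step of 1 is a doubling. How bright a probe is depends on its sequence too, so levels of different genes are not set against each other. The SD is over 4 β-CB1R+/+ mice or 3 β-CB1R-/- mice, and each interval is the 95% interval of the difference from limma. Exact p-values come from a two-sided exact permutation test, in which the means are compared under all 35 assignments of the mice to the genotypes and whose smallest p is 0.0286. The deleted gene, Cnr1, was read first as a check of the labels. Its levels were -1.11, -0.77, -0.53 and -0.02 in β-CB1R+/+ replicates 1 to 4 and -2.30, -3.13 and -2.28 in β-CB1R-/- replicates 1 to 3. All β-CB1R-/- mice lay below all β-CB1R+/+ mice, which is the direction the labels give, although whether this probe lies in the deleted part is not given in the sources used here. The log2 difference was -1.97 (SE 0.33, interval -2.72 to -1.21, adjusted p = 0.193 in limma, exact permutation p = 0.0286), and a normexp background correction brought it to -1.08. The Cnr1 probe was well above background on all 4 control arrays and on 3 of the 4 β-CB1R-/- arrays.

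**Figure D1:**
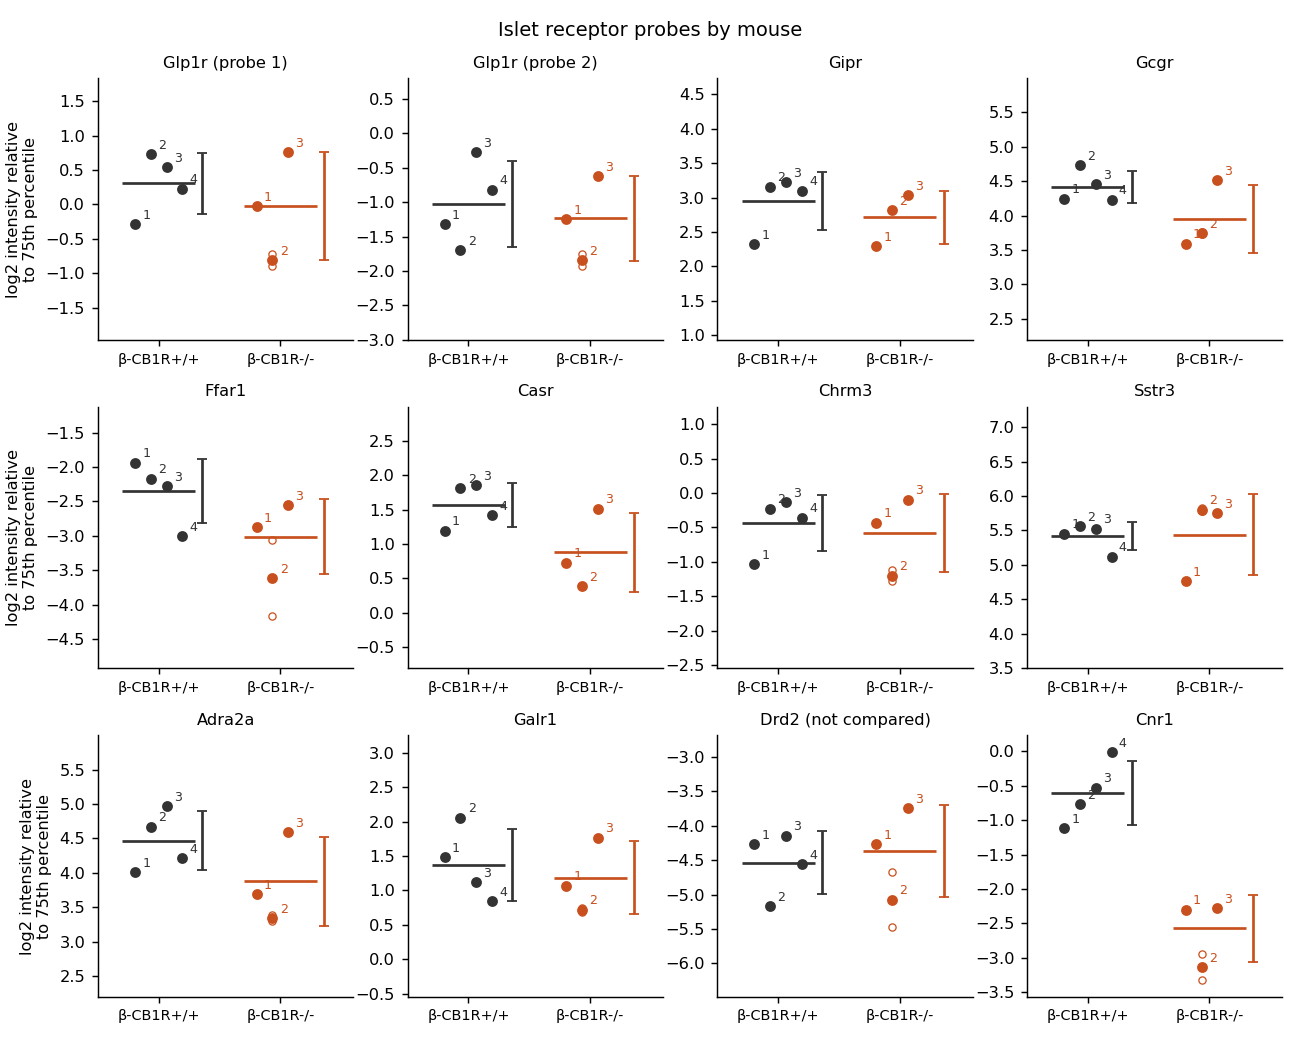
Log2 intensity above or below the array's 75th percentile (vertical axis, the same span in each panel) for each receptor probe and Cnr1, in β-CB1R+/+ (dark) and β-CB1R-/- (orange) islets. Filled points are mice, numbered by replicate, open circles are the repeat arrays of β-CB1R-/- replicate 2, horizontal lines are means and bars are ± 1 SD. The genotypes separate for Cnr1 and overlap for every receptor, and β-CB1R-/- replicate 3 is the highest mouse of its genotype in every receptor panel but Sstr3.

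Among the peptide receptors, Glp1r, the Gs-coupled receptor for GLP-1 and the target of exendin-4, had levels of -0.29, 0.73, 0.54 and 0.23 in the β-CB1R+/+ mice by its brighter probe (A_55_P2132089). The β-CB1R-/- mice had -0.02, -0.81 and 0.76. Both the lowest and the highest value of the 7 mice were thus from β-CB1R-/- islets, and replicate 1 of that genotype lay inside the control range. The means were 0.30 ± 0.44 (SD, n = 4) and -0.02 ± 0.79 (SD, n = 3), a log2 difference of -0.33 (SE 0.40, interval -1.25 to 0.60, exact permutation p = 0.514). A dimmer probe for Glp1r (A_55_P2016471), well above background on 7 of the 8 arrays, gave -1.32, -1.70, -0.27 and -0.82 against -1.25, -1.84 and -0.62. On this probe the lowest mouse of all was again β-CB1R-/- replicate 2 and the highest was β-CB1R+/+ replicate 3. Its log2 difference was -0.21 (SE 0.41, interval -1.15 to 0.73, exact permutation p = 0.714) and turned to 0.11 under normexp.

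Gipr, the receptor for the other incretin, GIP, had levels of 2.32, 3.16, 3.22 and 3.10 in β-CB1R+/+ islets and 2.29, 2.81 and 3.03 in β-CB1R-/- islets. Replicate 1 of each genotype was low, and the other 3 control mice lay above all β-CB1R-/- mice. The log2 difference was -0.24 (SE 0.29, interval -0.92 to 0.44, exact permutation p = 0.429) and turned to 0.19 under normexp. Gcgr, the glucagon receptor, which beta cells carry as well as liver, had 4.25, 4.73, 4.46 and 4.23 against 3.59, 3.74 and 4.52. β-CB1R-/- replicates 1 and 2 were below every control mouse, while replicate 3 was second only to control replicate 2. The difference in Gcgr was -0.47 (SE 0.27, interval -1.10 to 0.16, exact permutation p = 0.200).

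Next come the receptors for nutrients and ions. Casr, the calcium-sensing receptor, had levels of 1.19, 1.81, 1.85 and 1.42 in β-CB1R+/+ islets and 0.73, 0.39 and 1.52 in β-CB1R-/- islets. As for Gcgr, replicates 1 and 2 of β-CB1R-/- lay below every control mouse and replicate 3 lay inside the control range. The means were 1.57 ± 0.32 (SD, n = 4) and 0.88 ± 0.58 (SD, n = 3), a level 0.62 times that of controls, and the log2 difference was -0.69 (SE 0.31, interval -1.41 to 0.03, exact permutation p = 0.143). A difference of this size or larger, in either direction, was seen in 6.20% of all compared probes. Ffar1 encodes GPR40, the Gq-coupled receptor for long-chain fatty acids. Its dim probe gave -1.94, -2.17, -2.28 and -3.01 against -2.88, -3.62 and -2.55. β-CB1R+/+ replicate 4 lay among the β-CB1R-/- mice, and the other control mice were above all 3 of them. The log2 difference of Ffar1 was -0.67 (SE 0.34, interval -1.46 to 0.12, exact permutation p = 0.143), and 6.89% of all probes differed as much. This probe was well above background on 3 of the 4 β-CB1R-/- arrays, the repeat arrays of replicate 2 read -4.17 and -3.07, and normexp brought the difference to -0.28. The muscarinic receptor Chrm3, through which acetylcholine from parasympathetic nerves raises insulin secretion by way of Gq, had -1.04, -0.23, -0.14 and -0.36 against -0.44, -1.20 and -0.10. Each genotype had 1 low mouse, and the rest lay close together. Its difference was -0.14 (SE 0.33, interval -0.90 to 0.63, exact permutation p = 0.600).

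Of the inhibitory receptors, Adra2a, the alpha-2A adrenergic receptor through which noradrenaline suppresses insulin secretion, had levels of 4.01, 4.67, 4.96 and 4.21 in β-CB1R+/+ islets. The β-CB1R-/- mice had 3.69, 3.34 and 4.59. Again replicates 1 and 2 were below every control mouse while replicate 3 was above replicates 1 and 4 of the controls. The log2 difference was -0.59 (SE 0.36, interval -1.42 to 0.24, exact permutation p = 0.200), with 9.17% of all probes differing as much. Sstr3, a somatostatin receptor found on the primary cilia of beta cells, had 5.45, 5.56, 5.53 and 5.12 against 4.76, 5.80 and 5.75. β-CB1R-/- replicates 2 and 3 were above every control mouse and replicate 1 was below them all. The difference in means was 0.03 (SE 0.29, interval -0.65 to 0.70, exact permutation p = 1.00), and its sign turned under Z scores and with 1 of several mice left out. Galr1, a receptor for the neuropeptide galanin, had 1.48, 2.05, 1.12 and 0.84 against 1.07, 0.72 and 1.76. The genotypes were interleaved, and the difference was -0.19 (SE 0.36, interval -1.02 to 0.63, exact permutation p = 0.657). Drd2, a dopamine receptor, had a probe that cleared background on only 1 of the 8 arrays, that of β-CB1R-/- replicate 3, and on 0 of the 4 control arrays. For it no difference is given.

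**Figure D2:**
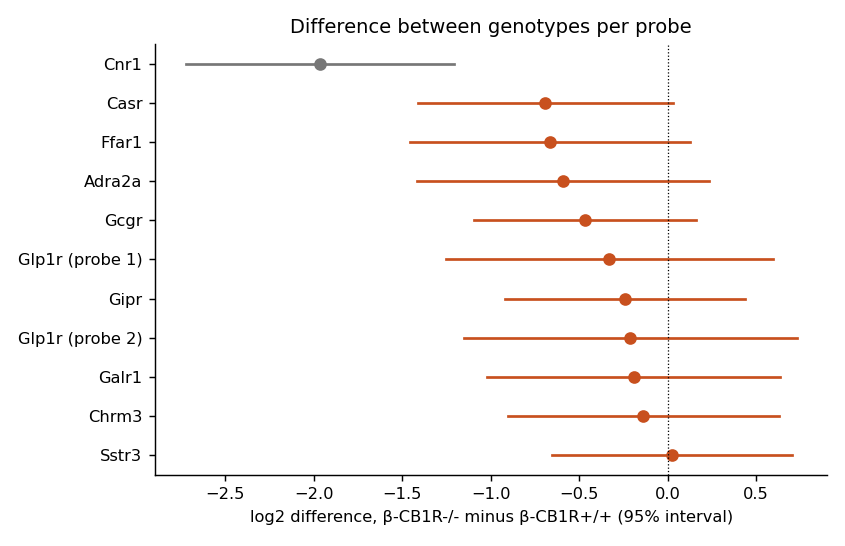
Log2 difference between genotypes (β-CB1R-/- minus β-CB1R+/+, horizontal axis) for each compared receptor probe (orange) and for Cnr1 (grey), with the 95% interval from limma over 4 and 3 mice. Each receptor interval crosses 0, that of Casr ending at 0.03, while that of Cnr1 runs from -2.72 to -1.21.

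Casr, Adra2a and Gcgr were the receptors in which β-CB1R-/- replicates 1 and 2 lay below every control mouse, and their promoters are shown for that reason. The sequences are those of RefSeq on GRCm38.p6, from 250 bases before to 50 bases after the start of the gene. Windows were taken for 8 of the 10 receptors. The windows were searched for the cAMP response element TGACGTCA, the shorter TGACG contained in it, and the TATA box TATAAA, on both strands. Matches to TGACG are in capitals.
Adra2a, chr19:54045009-54045308, plus strand: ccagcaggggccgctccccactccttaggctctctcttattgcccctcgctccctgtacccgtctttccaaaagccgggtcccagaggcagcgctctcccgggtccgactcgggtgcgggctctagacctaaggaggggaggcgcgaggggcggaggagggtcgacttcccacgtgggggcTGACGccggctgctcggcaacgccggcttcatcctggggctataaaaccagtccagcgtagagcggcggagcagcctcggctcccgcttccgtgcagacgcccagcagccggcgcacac
Casr, chr16:36562085-36562384, minus strand: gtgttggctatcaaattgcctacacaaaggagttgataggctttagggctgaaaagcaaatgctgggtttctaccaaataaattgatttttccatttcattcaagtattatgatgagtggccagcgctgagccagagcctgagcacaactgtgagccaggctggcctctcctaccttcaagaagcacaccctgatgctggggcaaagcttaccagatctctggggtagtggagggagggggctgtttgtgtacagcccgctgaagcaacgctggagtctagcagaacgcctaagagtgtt
Gcgr, chr11:120530477-120530776, plus strand: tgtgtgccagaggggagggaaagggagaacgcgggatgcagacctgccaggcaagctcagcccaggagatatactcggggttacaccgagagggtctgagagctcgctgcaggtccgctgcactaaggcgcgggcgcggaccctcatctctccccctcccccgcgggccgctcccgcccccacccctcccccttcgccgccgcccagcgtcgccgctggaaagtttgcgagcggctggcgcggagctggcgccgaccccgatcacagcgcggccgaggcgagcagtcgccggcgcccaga
In Adra2a there was 1 match to TGACG, at position -69 from the start, and 1 to TATAAA at -29. The windows of Casr and Gcgr held none of these letters. Among 32851 promoter windows of this length, 1.79% held TGACGTCA, 20.8% held TGACG and 13.6% held TATAAA. The arrays do not bear on what binds there.

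Several mice deviated from their genotype mean in the same direction in most receptors, here counted over the brightest probe of each gene, with exceptions in each mouse but β-CB1R-/- replicate 3 and control replicate 2. Replicate 3 of β-CB1R-/- was above the mean of its genotype in 9 of 9 receptor genes and was the highest of the 3 mice in 8, with a median deviation of 0.56 on the log2 scale. Over all compared probes the same mouse was the highest of its genotype in 32.5% and its median deviation was -0.14. Replicate 2 of β-CB1R-/- was the lowest in 6 of 9, against 27.6% of all probes, with a median deviation of -0.49, and replicate 1 was the lowest in the other 3. Among the controls, replicate 2 was above its genotype mean in 9 of 9 and replicate 3 in 8 of 9, whereas replicate 1 was the lowest in 5 of 9 (21.1% of all probes) and replicate 4 in the other 4 (36.1% of all probes). Control replicate 1 was at the same time the highest control in Ffar1, by 0.41 above the mean, and control replicate 3 was below the mean in Galr1, at -0.26. β-CB1R-/- replicate 2 was above its mean in Sstr3 (0.36) and Gipr (0.10). The dimmer probe of Glp1r, which is outside these counts, went the other way from the brighter one in control replicate 2, at -0.67 against 0.43. The receptors are measured in the same islets, so these counts are not independent of each other. The single deviations ran from -0.79 and 0.79 for the brighter probe of Glp1r in β-CB1R-/- replicates 2 and 3 to values near 0. For Adra2a, replicate 3 deviated by 0.72 and for Galr1 control replicate 2 did by 0.68. In Sstr3 the mouse that stood off was β-CB1R-/- replicate 1, at -0.68. Between the repeat arrays of β-CB1R-/- replicate 2, the compared receptor probes differed by at most 0.18 apart from Ffar1, which differed by -1.10, and over all probes the differences had an SD of 0.46. They show the spread between arrays of 1 RNA sample and not that between islet preparations.

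**Figure D3:**
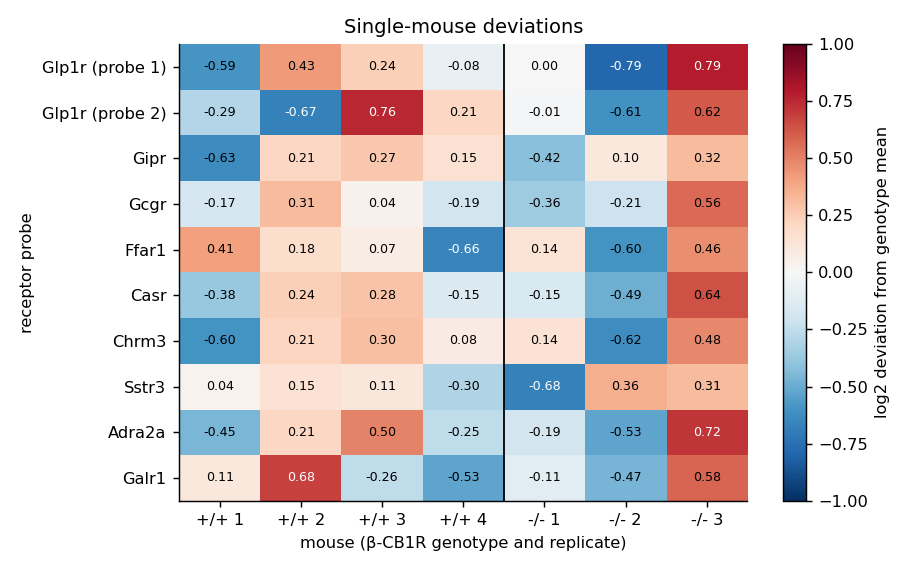
Deviation of each mouse from the mean of its genotype on the log2 scale (colour and printed value), for each compared receptor probe (rows) and mouse (columns, with β-CB1R+/+ left of the line). The column of β-CB1R-/- replicate 3 is above 0 throughout, and that of replicate 2 is below 0 for all probes but Gipr and Sstr3.

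Markers of other cells also differed between the mice. Acinar marker genes (8 genes, summed level as multiples of the 75th percentile) were lowest in β-CB1R-/- replicate 3 (7763) and β-CB1R+/+ replicate 2 (8031), the mice above their genotype mean in all 9 receptors by the brightest probe (control replicate 2 was below it on the dimmer probe of Glp1r). β-CB1R-/- replicate 3 also had the lowest summed beta cell (3294) and alpha cell (807) markers of the 7 mice. The acinar sums were 13818, 12092 and 11446 in control replicates 1, 3 and 4 and 15045 and 14533 in β-CB1R-/- replicates 1 and 2. Immediate-early genes, which can respond to handling of the tissue, summed to 503, 237 and 438 in control replicates 3 and 4 and β-CB1R-/- replicate 2, and to between 18.1 and 29.5 in the other 4 mice. The part of any of these in the receptor pattern was not tested. Defining islet markers were present in every mouse: the insulin gene Ins1 was at 10.4 or above on the log2 scale throughout, and its difference was -0.11 (SE 0.23). The 10 beta cell markers summed to 3978 to 5240 in controls and 3294 to 4719 in β-CB1R-/- islets, with 9 of 10 lower and a median log2 difference of -0.17. Alpha cell markers were lower in 5 of 7 genes with a median of -0.59, and their sums were 1002 to 1371 against 807 to 1030. In 2 of the 7, or 28.6%, the genotypes did not overlap, against 4.82% of all genes by their brightest probe: Gc, which encodes the vitamin D binding protein, differed by -0.98 (SE 0.26) and Ttr, which encodes transthyretin, by -0.83 (SE 0.24). Delta cell markers were lower in 4 of 4 genes with a median of -0.52, and sums of 450 to 665 against 317 to 534. The hormone genes themselves differed by -0.36 (SE 0.20) for Gcg, -0.53 (SE 0.25) for Sst, 0.07 (SE 0.26) for Ins2 and 0.54 (SE 0.61) for Ppy, and 0 genes of these lists passed the adjusted threshold in limma. Macrophage markers were higher in 6 of 6 genes, at sums of 42.6 to 56.1 against 55.6 to 88.9, with 0 past the threshold. Stellate cell and fibroblast markers were higher in 7 of 7 genes with a median of 1.01, against a median of 0.44 for macrophage markers, and 0 passed the threshold. Their sums were 4.78 to 60.9 in controls, where replicate 4 alone was above 8.42, and 16.8 to 28.2 in β-CB1R-/- islets. The part of these shifts in the receptor differences was not tested.

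**Figure D4:**
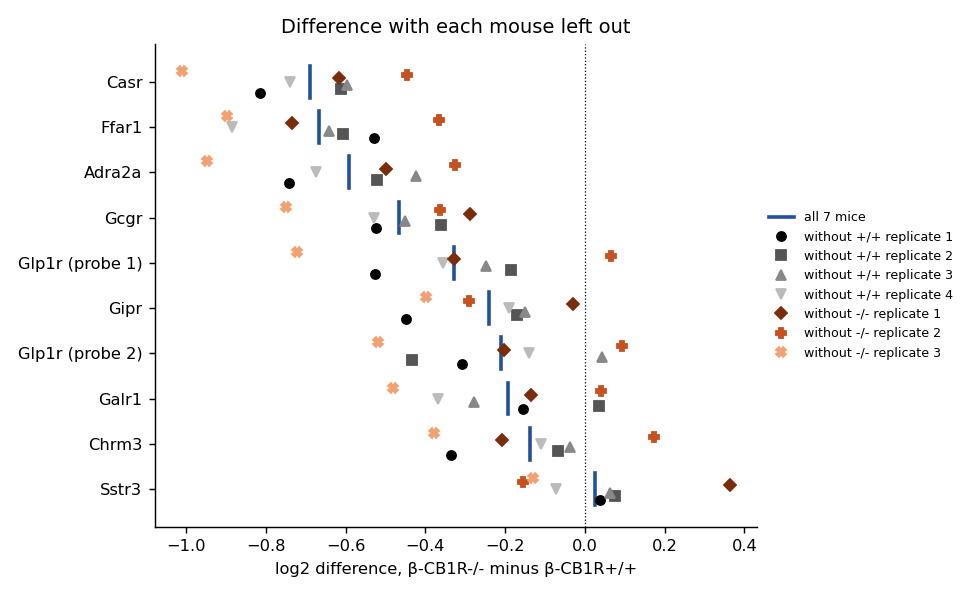
Log2 difference between genotypes (horizontal axis) for each compared receptor probe with all 7 mice (blue line) and with each mouse left out in turn (symbols). Leaving out β-CB1R-/- replicate 3 gives the lowest value of each probe but Gipr and Sstr3, and without replicate 2 both probes of Glp1r, Galr1 and Chrm3 move above 0.

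The size of the receptor differences turned on single mice. Without β-CB1R-/- replicate 3 the log2 difference was below 0 in 9 of 9 genes with a median of -0.72. It was then -1.01 for Casr, -0.95 for Adra2a, -0.90 for Ffar1 and -0.75 for Gcgr, and these 4 had an unadjusted p under 0.05 in limma, none passing after adjustment (lowest adjusted p = 0.503). In that comparison 9.75% of all probes were under 0.05 unadjusted, and 26% had no overlap between genotypes, as did 3 of the 9 receptors. Without replicate 2 the difference was below 0 in 6 of 9 genes with a median of -0.29. It was then -0.45 for Casr, -0.33 for Adra2a, -0.37 for Ffar1 and -0.36 for Gcgr. Without β-CB1R-/- replicate 1 the difference in Gcgr was -0.29. Without control replicate 1 the groups no longer overlapped for Gipr, where the difference was -0.45, as in 7.82% of all probes, whereas without β-CB1R-/- replicate 1 its difference was -0.03. The same held for Ffar1 without control replicate 4 (-0.89, 8.13% of all probes) and for Sstr3, which was then higher in β-CB1R-/- islets, without β-CB1R-/- replicate 1 (0.36, 10.5% of all probes). At an unadjusted p under 0.05 there was 1 receptor without control replicate 1 (Casr) and 1 without control replicate 4 (Ffar1), against 3.94% of all probes in both, and 0 without each of the other controls and without β-CB1R-/- replicate 1 or 2. Under each mouse left out, Casr, Ffar1, Adra2a, Gcgr and Gipr stayed below 0, and 0 receptors passed the adjusted threshold.

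The other genes of receptor signalling were counted from lists of further islet receptors, ligands, G protein alpha subunits and receptor regulators, and 0 genes of these lists passed the adjusted threshold in limma. Counts without overlap between genotypes are to be read against 4.82% of all genes by their brightest probe. The receptor lists follow an assumed role, which was not tested here, and Ffar3 (-0.30) is listed as stimulatory. Of 24 further receptors listed as stimulatory and compared, 15 were lower and 9 higher with a median of -0.20. Among them 1 (4.17%) had no overlap between genotypes, a share near that of all genes. This was Crhr1, the receptor for corticotropin-releasing hormone. Its levels were -0.77, -0.03, -0.40 and -0.49 against -0.91, -2.07 and -1.11, a difference of -0.94 (SE 0.32). Of 24 further inhibitory receptors, 16 were lower and 8 higher with a median of -0.07, and 2 (8.33%) had no overlap, of which 1 was the deleted gene Cnr1. The other was Sstr1, a somatostatin receptor, with levels of -2.59, -2.24, -2.53 and -2.33 against -2.75, -2.89 and -3.15 and a difference of -0.51 (SE 0.20). Among 19 genes for ligands or their synthesis, 13 were lower and 6 higher with a median of -0.36, and 2 (10.5%) had no overlap. Th, tyrosine hydroxylase, the rate-limiting enzyme of catecholamine synthesis, had 4.59, 5.41, 4.92 and 4.67 against 3.65, 3.63 and 4.38. Every β-CB1R-/- mouse was thus below every control mouse, by -1.01 in the means (SE 0.29). Pdyn, which encodes the precursor of the opioid peptide dynorphin, had 4.80, 5.10, 4.93 and 4.64 against 2.93, 0.82 and 4.09. In Pdyn the control mice lay close together and the β-CB1R-/- mice spread widely below them, with a difference of -2.26 (SE 0.66). Its second probe gave -0.80 (SE 0.19), also with no overlap. Of 14 alpha subunits 7 were lower and 7 higher with a median of -0.04, and of 27 regulators 15 were lower and 12 higher with a median of -0.05, with no overlap between genotypes in 0 genes of either. For Pyy and Rgs11, 1 mouse lacked a usable spot, so they were fitted over 6 mice and not assessed for overlap.

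**Figure D5:**
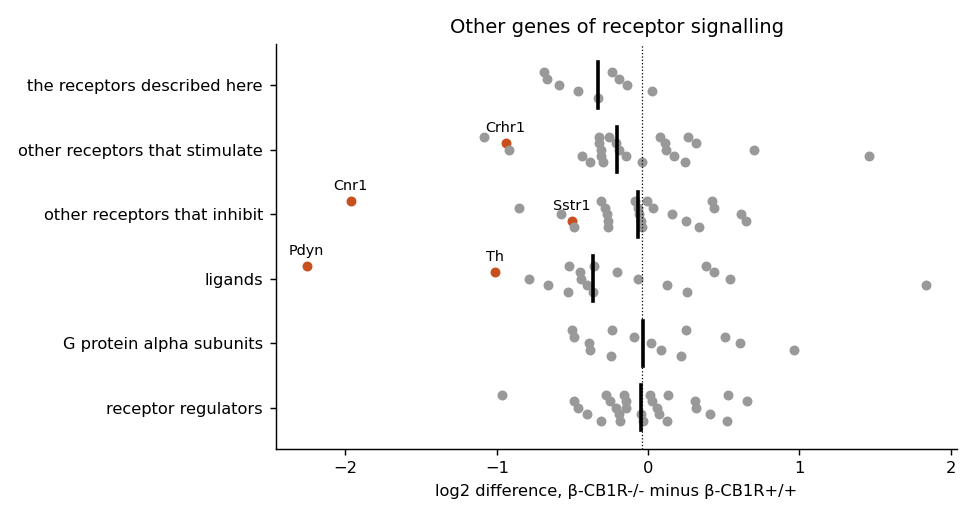
Log2 difference between genotypes (horizontal axis) for the brightest probe of each compared gene, in the 9 receptors and in 5 lists of other receptor-signalling genes (rows). Points are genes, orange and named where the genotypes do not overlap, black lines are medians and the dotted line is the median of all genes (-0.04). The receptor median is -0.33 and no receptor is orange.

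The genes whose levels followed those of the incretin receptors most closely over the 7 mice were described by Pearson's r among 16939 genes, with no test. For Glp1r they were Krcc1 (r = 0.993), Yipf4 (r = 0.989) and Brwd3 (r = 0.985), and 371 genes, or 2.19%, had an r over 0.9. For Gipr they were Psme1 (r = 0.988), Rara (r = 0.982) and Tbc1d31 (r = 0.977), and 95 genes, or 0.561%, had an r over 0.9. With 7 mice from 1 slide, all genes share the same islets and scaling, and such values arise for many genes at once.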

How the data were processed

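Islet total RNA of 4 β-CB1R+/+ and 3 β-CB1R-/- mice was measured on 8 arrays. Spot intensities were deposited as Feature Extraction signal with the background subtracted and no scaling across arrays. A Z score per spot, likewise deposited by the authors, matched the standardised log10 intensity of each array to within 0.00503 where checked. Intensities were put on the log2 scale relative to the 75th percentile of non-control spots of each array, spots flagged as irregular were left out, and spots of a probe and the repeat arrays of β-CB1R-/- replicate 2 were averaged. Between 33308 and 39989 of 55681 probes were well above background per array and no spot was saturated. The number of arrays limits the precision.

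The 39160 probes above background in 3 or more of 7 mice were compared with limma 3.58.1 in R 4.3.3 (lmFit and eBayes, two-sided, Benjamini-Hochberg over these probes, threshold 0.05), and single receptors also with an exact permutation test. The code was tested on simulated data. Symbols were matched by accession to RefSeq of GRCm38.p6 for 28026 probes. The arrays name another build, so no probe coordinates are given. Members and gene lists were chosen with earlier results of these data known. Named genes are the receptors, Cnr1, hormone genes, list genes that were past the threshold or without overlap (up to 5 per list), and the 3 genes most correlated with Glp1r and with Gipr; markers were summed by their brightest probes. Alternatives were normexp on median intensities with an offset of 50, quantile normalisation, Z scores computed or deposited, other filters on dim probes, either repeat array, the replicate block, an intensity trend, the mean of a gene's probes, leaving out each mouse and the methods' t test. The promoter of Galr1 is not reported here.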

Additional observations from a re-analysis of the deposited data

Results flagged for a closer look

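In Gipr, β-CB1R+/+ replicate 1 stood apart from the other control mice, at 2.32 on the log2 scale against 3.10 to 3.22. The summed level of 7 stellate cell and fibroblast markers was 60.9 times the 75th percentile in β-CB1R+/+ replicate 4. The other controls had 4.78 to 8.42 and β-CB1R-/- islets 16.8 to 28.2. These were the 2 of 23 groups of control values examined whose gap to the nearest mouse passed Dixon's 95% value, which chance gives in about 5%. Single probes were examined on the log2 scale but marker sums on the linear scale. The flag on the marker sum holds for that scale only, since the log2 scale was not examined for it. The cause was not tested in either case.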

How the results depend on the processing

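The count of receptors past the adjusted threshold was 0 under each of the 18 alternatives. The count over all probes, 43, was 34 to 46 under normexp, quantile normalisation, Z scores, either repeat array and the intensity trend, and fell to 23 with no filter on dim probes (more probes tested), 24 with probes above background on all 8 arrays (fewer tested), 0 with the replicate block (1714 at an unadjusted p under 0.05) and 0 with the methods' t test after adjustment (1412 before it). With each mouse left out it was 0 to 42. Leaving out β-CB1R-/- replicate 2 gave 0 (785 at an unadjusted p under 0.05), leaving out replicate 3 gave 5, and leaving out β-CB1R+/+ replicate 3 also gave 5. Receptors without overlap numbered 0 to 3 with each mouse left out. The replicate numbers do not pair the mice (correlations of same-numbered deviations 0.42, -0.27 and -0.06). With the replicate block, 0 receptors passed and the difference in Sstr3 was -0.074, and Ffar1 alone of the receptors was under 0.05 unadjusted.

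Casr, Ffar1, Adra2a, Gcgr, Chrm3, Galr1 and the brighter probe of Glp1r kept their direction under each alternative that used all mice. Signs turned for Gipr under normexp (0.19), for the dimmer probe of Glp1r under normexp (0.11), and for Sstr3 under Z scores computed here or deposited (-0.013 SD units for each). With each mouse left out, the difference ran from -0.72 to 0.064 for the brighter and -0.52 to 0.093 for the dimmer probe of Glp1r, -0.45 to -0.03 for Gipr, -0.38 to 0.17 for Chrm3, -0.16 to 0.36 for Sstr3, and -0.48 to 0.041 for Galr1. Apart from these mice left out and the changes in the number of probes tested, the cause was not tested. The probes of Ffar1 and Drd2 were near background, as was that of Cnr1 in β-CB1R-/- islets, and the small number of mice leaves wide intervals.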
